A study of Mus musculus with 14 samples.

Results

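The genes described here are 36 genes of ion transport in the distal nephron and collecting duct, the tubule segments downstream of the loop of Henle's thin limbs. They were chosen by name, from a list of transporters and their regulators, with earlier results of these data known. All 36 were found among the 23286 gene identifiers of the deposited tables. They fall into 4 groups: the thick ascending limb (4 genes), the distal convoluted tubule with the kinases that regulate it (15 genes), the principal cell (6 genes) and the intercalated cell (11 genes).

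RNA was sequenced from whole mouse kidneys in 12 libraries, 3 for each of 4 groups, taken 5 h after surgery at an age of 9 weeks. The groups were Control kidneys after sham surgery, Control kidneys after ischemia-reperfusion injury (IR), VE-PTPiKO kidneys after sham surgery and VE-PTPiKO kidneys after IR. The name VE-PTPiKO refers to VE-PTP, the endothelial receptor phosphatase encoded by Ptprb, which restrains the receptor Tie2; the promoter behind the deletion and the strain, the sex and the ischemia time of these libraries are not given in the sources used here. The series asks about angiopoietin and Tie2 in kidney injury, and its 2 single-cell samples were not analysed here.

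The thick limb takes up sodium, potassium and chloride through Slc12a1 (NKCC2). Kcnj1 (ROMK) returns potassium to the lumen, and the membrane protein barttin (Bsnd) is needed for chloride to leave the cell on the blood side. In the distal convoluted tubule the sodium-chloride cotransporter Slc12a3 is switched on by a chain of WNK kinases and their targets SPAK (Stk39) and OSR1 (Oxsr1), while a ubiquitin ligase of Klhl3 and Cul3 removes WNK kinases. Principal cells absorb sodium through the channel ENaC, and intercalated cells move acid, bicarbonate and ammonia.

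The libraries held 15427887 to 21296392 reads. Values below are reads per gene scaled to a common library size over all 12 libraries, called normalised reads, in the order of replicates 1, 2 and 3. Malat1, a nuclear RNA, took 1.020% of the reads in Control sham replicate 2, 1.152% in VE-PTPiKO sham replicate 2 and 1.962% in VE-PTPiKO IR replicate 3, and 0.327% to 0.564% in the other 9 libraries. VE-PTPiKO IR replicate 3 stood apart in the results that follow, which are therefore also given without it where it mattered. Ptprb, the gene named by the genotype, had 3061 to 4363 normalised reads in Control sham and 2068 to 3049 in VE-PTPiKO sham kidneys, and 2040 to 2721 against 1314 to 2114 after IR. The VE-PTPiKO level was lower by 0.43 (sham) and 0.45 (IR) on the log2 scale, with an adjusted p of 1 in limma in each condition. The sham groups lay next to each other without overlap and the IR groups overlapped, so that whole-kidney RNA gave no clear check of the genotype labels.

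The segments were present at very different levels. Per kilobase of exon in Control sham kidneys, Umod (uromodulin, the thick limb's secreted protein) was the most abundant of the 36 genes at 26704 ± 994 normalised reads per kilobase (SD, n = 3). Atp1b1 and Fxyd2, the beta and gamma subunits of the sodium pump, followed at 9379 ± 222 and 7495 ± 1200 reads per kilobase. The potassium channel Kcnj16 and Slc12a1 came next at 6329 ± 1390 and 4648 ± 608 reads per kilobase. Of these 5 genes, the ranges of Fxyd2 and Kcnj16 overlapped, and so did those of Kcnj16 and Slc12a1. These levels are not specific to the named segments, since the sodium pump subunits, Kcnj16 and Car2 are also expressed in other tubule cells.

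**Figure D1:**
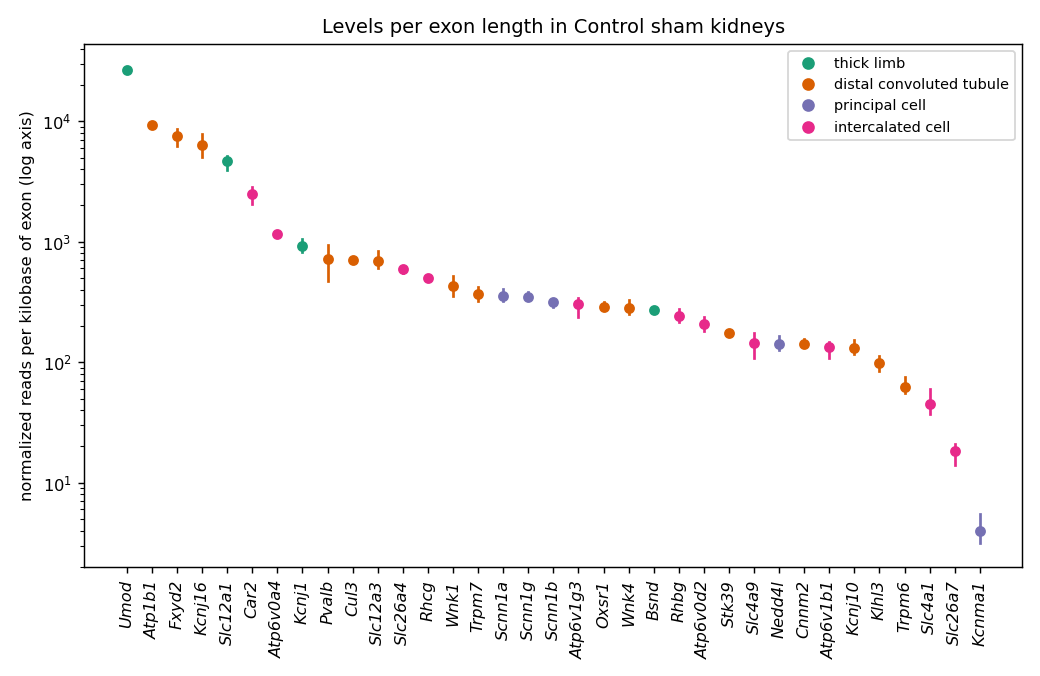
Normalised reads per kilobase of exon (log axis) for 35 of the 36 genes in Control sham kidneys, in order of level and coloured by segment; points are means and lines run from the lowest to the highest of the 3 libraries. Umod stands at 26704 and Kcnma1 at 3.99 reads per kilobase; Avpr2, at 0 in a library, is left out of the log axis.

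Car2 (carbonic anhydrase 2) stood at 2502 ± 404 reads per kilobase, Atp6v0a4 (the a4 subunit of the proton pump) at 1149 ± 52.4, and Kcnj1 at 924 ± 127. Their ranges did not overlap with one another, nor with that of Slc12a1. Among the genes that define the other segments, levels were lower, with Slc12a3 at 690 ± 131, Slc26a4 (pendrin, the chloride-bicarbonate exchanger of type B intercalated cells) at 590 ± 36.5, and the ENaC subunits at 358 ± 41.8 (Scnn1a), 350 ± 28.0 (Scnn1g) and 315 ± 24.7 (Scnn1b) reads per kilobase. Neighbouring ENaC subunits overlapped in range. At the lower end, Klhl3 had 98.6 ± 13.7, Trpm6 62.7 ± 10.7, Slc4a1 45.0 ± 13.1 and Slc26a7 18.4 ± 3.81 reads per kilobase. Kcnma1, the large-conductance potassium channel, had 3.99 ± 1.27 reads per kilobase, from 36 to 113 reads a library. Avpr2, the vasopressin receptor, had 0 to 3 reads in every library, too few for a fold change. Other genes overlap 81.3% of the exon bases of Avpr2, 61.4% of those of Rhbg, 19.5% of those of Umod and 18.7% of those of Atp1b1, so reads of these 4 genes could be divided differently; for the 7 genes that passed the test below the overlap was at most 6.45%.

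In Control kidneys, 7 of the 36 genes passed the test between IR and sham (limma, Benjamini-Hochberg adjusted p under 0.05 over all genes tested). Bsnd, Kcnj1, Klhl3, Trpm6 and Atp6v0a4 were lower after IR, and Nedd4l and Car2 were higher. In VE-PTPiKO kidneys 2 of 35 genes passed, Bsnd and Klhl3, both lower. The authors' deposited table, from DESeq2, has 8 of these genes under that threshold in Control kidneys, the same 7 and Wnk4, and 5 in VE-PTPiKO kidneys, Bsnd, Klhl3, Wnk4, Kcnj10 and Atp6v0a4, all lower. The genes that define the segments, Umod, Slc12a1, Slc12a3, the 3 ENaC subunits, Slc4a1 and Slc26a4, did not pass in either genotype. The background over all genes was 11.5% (1870 of 16257; 7.48% higher and 4.02% lower) in Control and 2.71% (445 of 16401; 1.92% higher and 0.793% lower) in VE-PTPiKO kidneys, against 19.4% and 5.71% of the genes described here. At an unadjusted p under 0.05 in limma, 9 of 36 genes were counted in Control and 8 of 35 in VE-PTPiKO kidneys, beside backgrounds of 24.2% and 15.2%. The median log2 fold change was -0.11 over the 36 genes in Control and -0.18 over 35 in VE-PTPiKO kidneys, beside -0.01 over all genes tested in each. In bulk tissue, fewer cells of a type and less RNA per cell cannot be told apart. The labels do not say whether the 3 libraries of a group come from separate animals, so each p-value measures only the spread between these libraries.

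**Figure D2:**
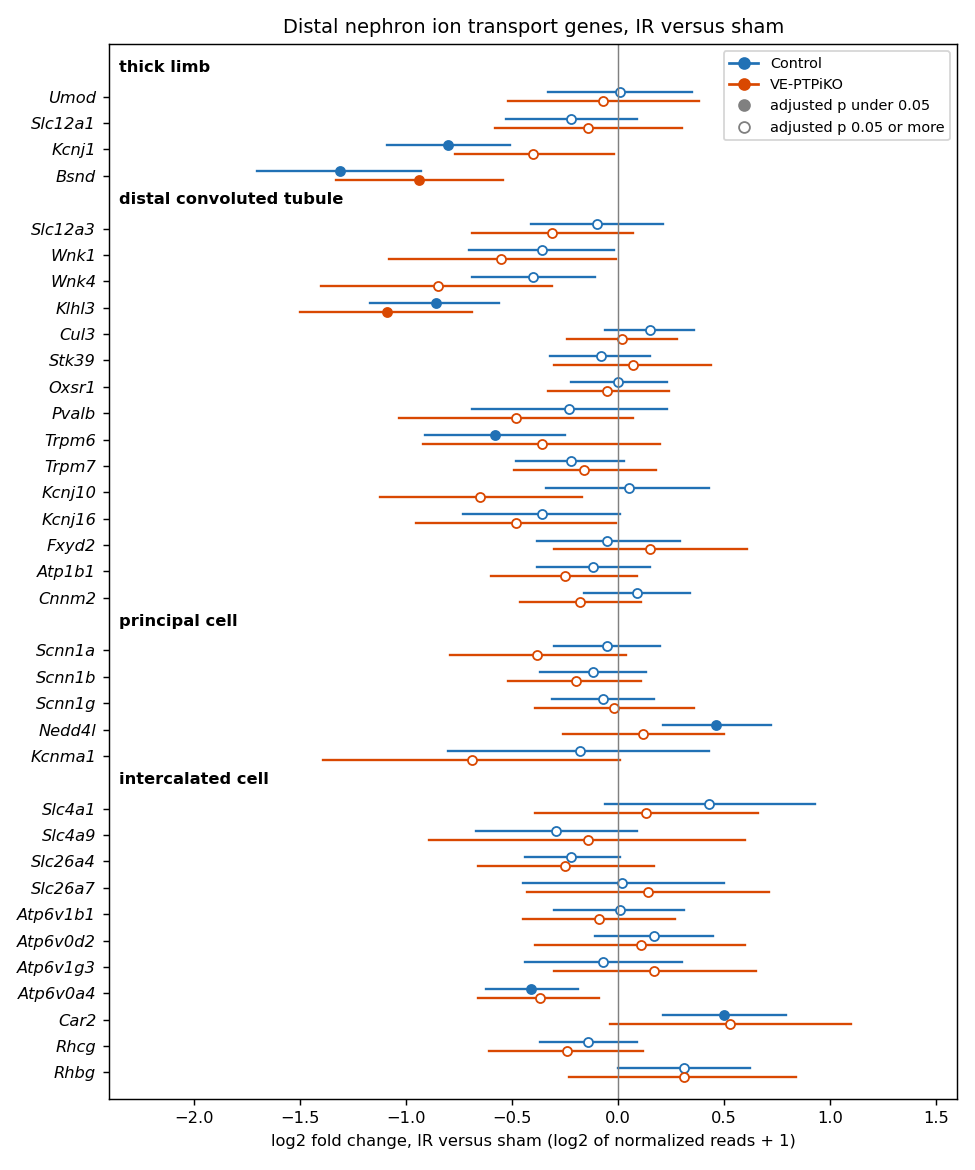
Log2 fold change of IR against sham for 35 genes, grouped by segment; points are estimates, lines are 95% confidence intervals, blue is Control and orange VE-PTPiKO, and filled points have an adjusted p under 0.05. Bsnd and Klhl3 are filled in both genotypes, and Umod, Slc12a1 and Slc12a3 have intervals across 0.

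Within the thick limb, Umod and Slc12a1 did not pass the test, while Bsnd and Kcnj1 did. Umod, the segment's main secreted product, had 72643, 76916 and 71789 normalised reads in Control sham and 66929, 80383 and 75899 in Control IR kidneys. VE-PTPiKO libraries had 73100, 68096 and 76400 after sham surgery and 65719, 85046 and 58859 after IR. The IR and sham values overlapped in both genotypes, and the log2 fold changes were 0.01 (95% interval -0.33 to 0.35) and -0.07 (-0.52 to 0.38). Slc12a1 had 22880, 29653 and 27820 normalised reads in the sham and 24189, 23212 and 21065 in the IR libraries of Control kidneys, and 19933, 28234 and 26719 and 18582, 23433 and 25874 in those of VE-PTPiKO kidneys. Again the groups overlapped, and the log2 fold changes were -0.22 (-0.53 to 0.09) in Control and -0.14 (-0.58 to 0.30) in VE-PTPiKO kidneys.

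Bsnd (chr4:106483457-106492243, minus strand, GRCm38), which encodes barttin, had 743, 721 and 779 normalised reads in Control sham kidneys and 384, 227 and 307 after IR. Every Control IR library lay below every Control sham library. The log2 fold change was -1.31 ± 0.18 (SE; 95% interval -1.70 to -0.93), a level 2.49-fold lower, with an adjusted p of 0.000719 in limma. In VE-PTPiKO kidneys Bsnd had 665, 599 and 636 normalised reads after sham surgery and 340, 396 and 267 after IR. These groups did not overlap either, and the log2 fold change was -0.94 ± 0.17 (-1.33 to -0.54), a level 1.91-fold lower, with an adjusted p of 0.0245 in limma. The VE-PTPiKO call was lost without any 1 of the VE-PTPiKO sham replicates 1, 2 and 3, or without IR replicate 1 (adjusted p of 0.0735, 0.0909, 0.135 and 0.0856 in limma), with log2 fold changes of -0.90 to -0.98.

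Kcnj1 (chr9:32372417-32399194, plus strand), the potassium channel ROMK of the thick limb and collecting duct, had 2968, 2726 and 3547 normalised reads in Control sham and 1600, 1653 and 2039 in Control IR kidneys. The groups did not overlap. The log2 fold change was -0.80 ± 0.13 (-1.09 to -0.51), a level 1.74-fold lower, with an adjusted p of 0.00283 in limma. In VE-PTPiKO kidneys Kcnj1 had 3073, 2310 and 3182 normalised reads after sham surgery and 2244, 2355 and 1858 after IR. There the groups overlapped, through VE-PTPiKO sham replicate 2, and the log2 fold change of -0.40 (-0.77 to -0.02) had an adjusted p of 0.294 in limma. The difference between the genotypes' fold changes was 0.40 on the log2 scale (-0.07 to 0.88), with an adjusted p of 0.999 in limma, so a genotype difference was not shown.

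**Figure D3:**
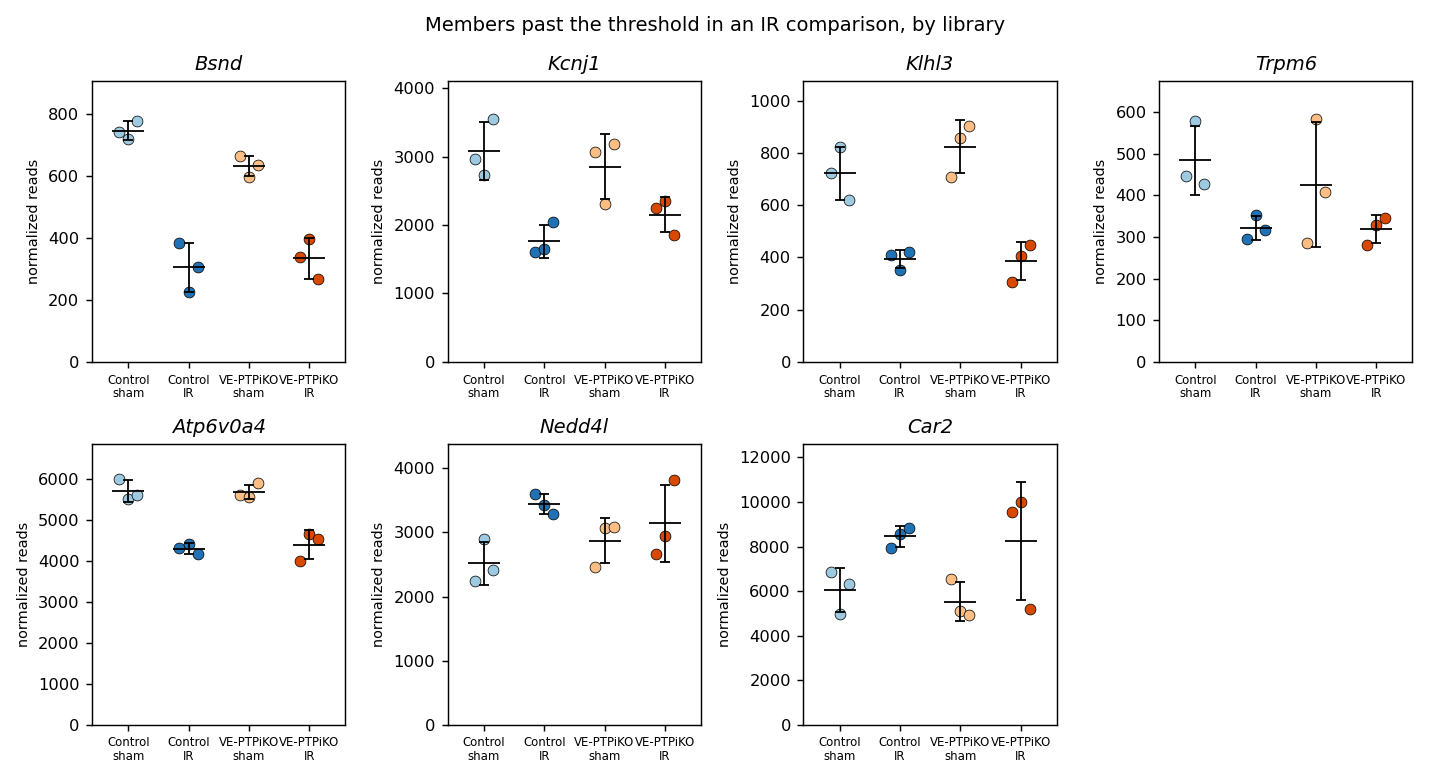
Normalised reads in each library for the 7 genes that passed the test in an IR comparison; points are libraries, the wide bar is the mean and the whiskers are ± 1 SD of 3 libraries. Bsnd, Klhl3 and Atp6v0a4 separate IR from sham in both genotypes, while Kcnj1, Trpm6, Nedd4l and Car2 separate in Control and overlap in VE-PTPiKO kidneys.

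In the distal convoluted tubule, the cotransporter itself did not pass the test. Slc12a3 had 6898, 9356 and 6778 normalised reads in the sham and 6397, 7554 and 7281 in the IR libraries of Control kidneys, and 7632, 7839 and 9041 and 5326, 6816 and 7827 in those of VE-PTPiKO kidneys. The groups overlapped in both genotypes, with log2 fold changes of -0.10 (-0.41 to 0.21) and -0.31 (-0.69 to 0.07).

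Klhl3 (chr13:58004956-58102428, minus strand), the adaptor that brings WNK kinases to the ubiquitin ligase, had 723, 822 and 621 normalised reads in Control sham and 409, 353 and 420 in Control IR kidneys. The VE-PTPiKO values were 708, 857 and 903 in sham and 307, 407 and 448 in IR libraries. All IR libraries lay below all sham libraries. The log2 fold change was -0.86 ± 0.14 (-1.17 to -0.56), a level 1.82-fold lower, in Control kidneys, with an adjusted p of 0.00224 in limma. In VE-PTPiKO kidneys it was -1.09 ± 0.18 (-1.50 to -0.69), a level 2.13-fold lower, with an adjusted p of 0.0146 in limma. The VE-PTPiKO call was lost without replicate 2 or 3 of the VE-PTPiKO sham group or replicate 1 or 2 of the IR group (adjusted p of 0.0782, 0.103, 0.0512 and 0.0604 in limma), with log2 fold changes of -0.94 to -1.14.

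The ligase's scaffold Cul3 did not pass the test. It had 3286, 3477 and 3553 normalised reads in Control sham and 3840, 3717 and 3842 in Control IR kidneys, a log2 fold change of 0.15 (-0.06 to 0.36). In VE-PTPiKO kidneys its log2 fold change was 0.02 (-0.24 to 0.28).

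The WNK kinases had lower estimates after IR in both genotypes without passing the test. Wnk4 had 1115, 1354 and 1047 normalised reads in Control sham and 780, 906 and 972 in Control IR kidneys. In VE-PTPiKO kidneys it had 1128, 1443 and 1686 after sham surgery and 574, 740 and 1093 after IR. IR and sham libraries did not overlap in either genotype. The log2 fold changes were -0.40 (-0.69 to -0.11; adjusted p of 0.0804 in limma) and -0.85 (-1.40 to -0.31; adjusted p of 0.118). Wnk4 passed in VE-PTPiKO kidneys under 5 of the 17 processing settings run. In the authors' deposited table Wnk4 passed in both genotypes, with log2 fold changes of -0.39 (adjusted p of 0.011) and -0.72 (adjusted p of 0.00673) from DESeq2. Wnk1 had log2 fold changes of -0.36 (-0.70 to -0.02) and -0.55 (-1.08 to -0.01), with adjusted p of 0.180 and 0.317 in limma. The kinases that WNKs activate had log2 fold changes of -0.08 and 0.07 for Stk39 and 0.00 and -0.05 for Oxsr1 in Control and VE-PTPiKO kidneys.

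Among the magnesium genes of this segment, Trpm6 (chr19:18749982-18892511, plus strand), the apical magnesium channel, had 445, 578 and 428 normalised reads in Control sham and 295, 353 and 317 in Control IR kidneys. The groups did not overlap, and the log2 fold change of -0.58 ± 0.15 (-0.91 to -0.25), a level 1.49-fold lower, had an adjusted p of 0.0308 in limma. The call was lost without Control sham replicate 2 (log2 fold change of -0.44, adjusted p of 0.0533 in limma) and without Control IR replicate 1, 2 or 3 (adjusted p of 0.107, 0.0733 and 0.0907). In VE-PTPiKO kidneys Trpm6 had 285, 584 and 408 normalised reads after sham surgery and 282, 329 and 347 after IR, which overlapped, with a log2 fold change of -0.36 (-0.92 to 0.20). Its relative Trpm7 had log2 fold changes of -0.22 and -0.16, and Cnnm2, a basolateral magnesium protein, 0.09 and -0.18; neither passed.

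The basolateral potassium channels Kcnj10 and Kcnj16 work together as a heteromer in this segment. Kcnj10 had 678, 828 and 630 normalised reads in Control sham and 561, 760 and 907 in Control IR kidneys, which overlapped, with a log2 fold change of 0.05 (-0.34 to 0.43). VE-PTPiKO libraries had 855, 775 and 963 after sham surgery and 396, 611 and 683 after IR, which did not overlap, with a log2 fold change of -0.65 (-1.12 to -0.17; adjusted p of 0.173 in limma). The authors' deposited table gives Kcnj10 a log2 fold change of -0.55 there, with an adjusted p of 0.0268 from DESeq2. In DESeq2 as run here Kcnj10 did not pass. It passed in VE-PTPiKO kidneys under 1 of the 17 processing settings run, that without VE-PTPiKO IR replicate 3. Kcnj16 had log2 fold changes of -0.36 (-0.73 to 0.01) and -0.48 (-0.95 to -0.01) in Control and VE-PTPiKO kidneys. The sodium pump subunits did not pass, at -0.12 and -0.25 for Atp1b1 and -0.05 and 0.15 for Fxyd2.

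Parvalbumin (Pvalb), a calcium-binding protein of the early distal convoluted tubule, varied widely between libraries of a group. It had 979, 494 and 776 normalised reads in the sham and 563, 688 and 597 in the IR libraries of Control kidneys, and 328, 672 and 539 and 364, 330 and 364 in those of VE-PTPiKO kidneys. Its log2 fold change after IR was -0.23 (-0.69 to 0.23) in Control and -0.48 (-1.03 to 0.07) in VE-PTPiKO kidneys. Without Control sham replicate 2, the lowest of that group, the Control log2 fold change was -0.50 with an adjusted p of 0.0419 in limma, and without Control sham replicate 1, the highest, it was -0.01 with an adjusted p of 0.982. In all, 2 of the 15 genes of this segment passed in Control kidneys and 1 of 15 in VE-PTPiKO kidneys, all lower (13.3% and 6.67%, beside 11.5% and 2.71% of all genes called in either direction).

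The sodium channel subunits of the principal cell did not pass the test. Scnn1a, the alpha subunit of ENaC, had 1448, 1665 and 1324 normalised reads in the sham and 1340, 1525 and 1397 in the IR libraries of Control kidneys, and 1436, 1618 and 1841 and 961, 1384 and 1467 in those of VE-PTPiKO kidneys. Scnn1b, the beta subunit, had 882, 847 and 756 normalised reads in the sham and 699, 780 and 793 in the IR libraries of Control kidneys, and 769, 937 and 874 and 720, 820 and 695 in those of VE-PTPiKO kidneys. Scnn1g, the gamma subunit, had 1141, 1019 and 981 normalised reads in the sham and 944, 1000 and 1034 in the IR libraries of Control kidneys, and 1080, 919 and 1104 and 1048, 1198 and 835 in those of VE-PTPiKO kidneys. IR and sham overlapped for all 3 subunits in both genotypes. Their log2 fold changes were -0.05, -0.12 and -0.07 in Control and -0.38, -0.20 and -0.02 in VE-PTPiKO kidneys for Scnn1a, Scnn1b and Scnn1g, and the widest interval, that of Scnn1a in VE-PTPiKO kidneys, ran from -0.79 to 0.04.

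Nedd4l, the ubiquitin ligase that removes ENaC from the membrane, was the 1 gene of the principal cell group that passed. Nedd4l was measured in whole-kidney RNA, and the cells in which its level changed were not tested. It had 2244, 2893 and 2414 normalised reads in Control sham and 3600, 3426 and 3294 in Control IR kidneys, which did not overlap. The log2 fold change was 0.46 ± 0.12 (0.21 to 0.72), a level 1.38-fold higher, with an adjusted p of 0.0263 in limma. The call was lost without Control sham replicate 1 or 3 (adjusted p of 0.0804 and 0.0893 in limma) and without Control IR replicate 1, 2 or 3 (adjusted p of 0.0910, 0.116 and 0.0623), with log2 fold changes of 0.38 to 0.49. In VE-PTPiKO kidneys Nedd4l had 2468, 3075 and 3080 normalised reads after sham surgery and 2660, 2950 and 3817 after IR, which overlapped, with a log2 fold change of 0.12 (-0.26 to 0.50). Kcnma1 had log2 fold changes of -0.18 and -0.69 (-1.39 to 0.01) at its low read number.

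Beside the principal cell values, 2 of 5 markers of the inner medulla and papilla were lower in Control IR kidneys, Slc14a2 (a urea transporter) by a log2 fold change of -0.85 and Akr1b3 (aldose reductase) by -0.65, with adjusted p of 0.0202 and 0.0229 in limma. The summed level of the 5 markers was 16323 to 22704 normalised reads in Control sham and 12649 to 14441 in Control IR kidneys. In VE-PTPiKO kidneys it was 15234 to 20009 after sham surgery and 12895 to 15026 after IR, where 0 of 5 passed in limma at an adjusted and 0 at an unadjusted p under 0.05. No marker was at 0 in any library. Their part in the values above was not tested.

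Of the intercalated cell genes, Atp6v0a4 was lower and Car2 higher after IR in Control kidneys. Slc4a1, the basolateral bicarbonate exchanger of type A cells, had 183, 294 and 183 normalised reads in the sham and 296, 364 and 226 in the IR libraries of Control kidneys, and 191, 212 and 199 and 204, 310 and 168 in those of VE-PTPiKO kidneys. The groups overlapped, with log2 fold changes of 0.43 (-0.06 to 0.93) and 0.13 (-0.39 to 0.66). Slc26a4 had 1937, 1854 and 1712 normalised reads in the sham and 1631, 1611 and 1485 in the IR libraries of Control kidneys, and 1633, 2068 and 1763 and 1385, 1984 and 1295 in those of VE-PTPiKO kidneys. It did not overlap in Control kidneys, where its log2 fold change of -0.22 (-0.44 to 0.01) had an adjusted p of 0.227 in limma, and it overlapped in VE-PTPiKO kidneys at -0.25 (-0.66 to 0.17).

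Atp6v0a4 (chr6:38048482-38124586, minus strand), the a4 subunit of the membrane sector of the proton pump, had 6009, 5513 and 5624 normalised reads in Control sham and 4327, 4421 and 4162 in Control IR kidneys. The VE-PTPiKO values were 5621, 5580 and 5900 in sham and 4014, 4662 and 4540 in IR libraries. All 6 IR libraries lay below all 6 sham libraries. In Control kidneys the log2 fold change of -0.41 ± 0.10 (-0.62 to -0.19), a level 1.32-fold lower, had an adjusted p of 0.0215 in limma. This call was lost without Control sham replicate 1 or 3 (adjusted p of 0.0634 and 0.0572 in limma) and without Control IR replicate 1, 2 or 3 (adjusted p of 0.0582, 0.0990 and 0.0964), with log2 fold changes of -0.37 to -0.42. In VE-PTPiKO kidneys the log2 fold change was -0.37 (-0.66 to -0.09), with an adjusted p of 0.188 in limma within that genotype and 0.0339 in one limma model of all 12 libraries. The authors' deposited table gives -0.36 with an adjusted p of 0.0112 from DESeq2. Atp6v0a4 is also expressed in proximal tubule. Of 7 proximal tubule markers, 0 passed in either genotype in limma (0 in Control and 1 in VE-PTPiKO kidneys at an unadjusted p under 0.05). Their log2 fold changes ran from -0.48 (Lrp2, -1.09 to 0.13) to 0.03 (Slc22a6) in Control kidneys. In VE-PTPiKO kidneys they ran from -0.53 (Lrp2, -1.35 to 0.29) to -0.03 (Slc5a2). Their summed level was 254586 to 347829 normalised reads in Control sham and 243228 to 260423 in Control IR kidneys. In VE-PTPiKO kidneys it was 244133 to 340679 after sham surgery and 221252 to 295774 after IR. The part of proximal tubule in the Atp6v0a4 values was not tested.

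The other proton pump subunits did not pass. In Control and VE-PTPiKO kidneys the log2 fold changes were 0.01 and -0.09 for Atp6v1b1, 0.17 and 0.11 for Atp6v0d2 and -0.07 and 0.17 for Atp6v1g3. The Control intervals of these 3 subunits lay within -0.44 and 0.45. A difference between these subunits and Atp6v0a4 was not tested.

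Car2 (chr3:14886425-14900770, plus strand), the cytosolic carbonic anhydrase that supplies protons and bicarbonate, had 6869, 4970 and 6337 normalised reads in Control sham and 7938, 8583 and 8854 in Control IR kidneys. The groups did not overlap, and the log2 fold change of 0.50 ± 0.13 (0.21 to 0.79), a level 1.41-fold higher, had an adjusted p of 0.0337 in limma. The call was lost without Control sham replicate 3 (adjusted p of 0.0713 in limma) and without Control IR replicate 1, 2 or 3 (adjusted p of 0.0547, 0.143 and 0.115), with log2 fold changes of 0.46 to 0.54. In VE-PTPiKO kidneys Car2 had 6538, 5113 and 4936 normalised reads after sham surgery and 9552, 10004 and 5204 after IR. VE-PTPiKO IR replicate 3 lay among the sham libraries, and the log2 fold change of 0.53 (-0.04 to 1.10) had an adjusted p of 0.366 in limma. Without that library it was 0.84, with an adjusted p of 0.00878 in limma. Car2 did not pass in VE-PTPiKO kidneys with any other single library left out. It passed there under 2 of the 17 processing settings run, over which its log2 fold change ran from 0.36 to 0.84.

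Slc4a1 and Car2 are also genes of red cells. The red cell markers Hba-a1 and Alas2 were higher in Control IR kidneys by log2 fold changes of 1.98 and 1.83 (adjusted p of 0.00183 and 0.000712 in limma), and their summed level was 315 to 650 normalised reads in Control sham and 1208 to 2367 in Control IR kidneys. In VE-PTPiKO kidneys it was 341 to 554 after sham surgery and 594 to 1931 after IR, with log2 fold changes of 1.61 and 1.38 and adjusted p of 0.0962 and 0.0675. The part of red cells in the Slc4a1 and Car2 values was not tested. Of the other marker lists, 2 of 5 leukocyte markers (Cd68 and Lyz2) and 1 of 4 endothelial markers (Cdh5) were higher in Control IR kidneys, and the leukocyte sum was 1589 to 1822 normalised reads in Control sham and 2133 to 2213 in Control IR kidneys. In VE-PTPiKO kidneys 1 of 5 leukocyte markers (Cd68) was higher after IR, with a sum of 1643 to 1758 in sham and 1740 to 2237 in IR libraries, and no endothelial marker passed in limma. The part of these cells in the results was not tested.

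Of the remaining anion and ammonia carriers, Slc4a9 had log2 fold changes of -0.29 and -0.14, Slc26a7 0.02 and 0.14, Rhcg -0.14 and -0.24, and Rhbg 0.31 and 0.31 in Control and VE-PTPiKO kidneys. Rhbg and Rhcg are the basolateral and apical ammonia carriers of the collecting duct. None of these 4 genes passed in either genotype. Of the 11 intercalated cell genes, 1 was higher and 1 lower in Control kidneys (18.2%, beside 11.5% of all genes called in either direction). In VE-PTPiKO kidneys 0 passed in limma, edgeR and DESeq2 as run here, beside 2.71% of all genes in limma. There 1 of the 11 had an unadjusted p under 0.05 in limma, and in the authors' deposited table Atp6v0a4 passed.

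**Figure D4:**
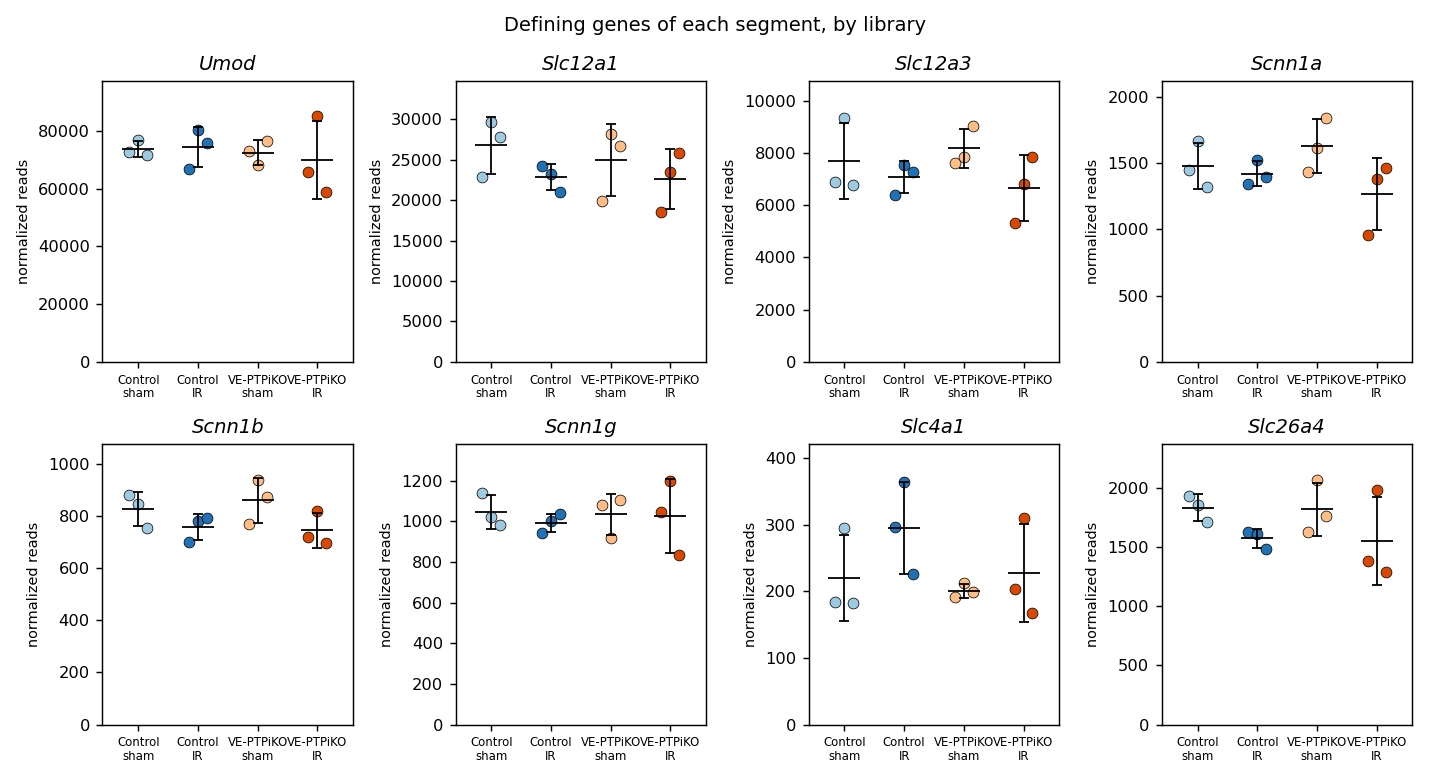
Normalised reads in each library for the 8 genes that define the segments; points are libraries, the wide bar is the mean and the whiskers are ± 1 SD of 3 libraries. The IR and sham libraries overlap in each panel except for Slc26a4 in Control kidneys, and none of the 8 genes passed the test.

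To set the changed genes against their own segment, the log2 level of each was taken relative to the mean log2 level of the segment's defining genes in the same library. This measure was chosen after the values were seen and carries no test. It is not confined to the named segment. For example, Slc4a1 and Car2 are also genes of red cells, Atp6v0a4 is also expressed in proximal tubule, and Kcnj1 in collecting duct. These are whole-kidney values, and the cells in which Bsnd, Klhl3, Trpm6 and Nedd4l changed were not tested. Relative to Umod and Slc12a1, Bsnd was lower after IR by 1.21 in Control and 0.83 in VE-PTPiKO kidneys on the log2 scale, and Kcnj1 by 0.70 and 0.30. Relative to Slc12a3, Klhl3 was lower by 0.76 and 0.79, and Trpm6 by 0.47 and 0.05. Relative to the 3 ENaC subunits, Nedd4l was higher by 0.54 and 0.32. Relative to Slc4a1 and Slc26a4, Atp6v0a4 was lower by 0.51 and 0.32, and Car2 was higher by 0.39 and 0.59. IR and sham libraries were separate in both genotypes for Bsnd and Klhl3. For Kcnj1, Trpm6, Nedd4l and Atp6v0a4 they were separate in Control kidneys and overlapped in VE-PTPiKO kidneys, and for Car2 they overlapped in both. Without the 3 libraries highest in Malat1 the relative difference of Bsnd was -1.29 and -0.75 and that of Klhl3 -0.81 and -0.71 in Control and VE-PTPiKO kidneys, while that of Trpm6 was -0.49 and 0.30. Without them the Control value of Car2 was 0.13, and the VE-PTPiKO values of Atp6v0a4 and Nedd4l were -0.58 and 0.21. In VE-PTPiKO kidneys, sham replicates 1 and 3 and IR replicates 1 and 2 were then left. These were separate for all 7 genes, with Trpm6 higher after IR. So few libraries separate easily, and the share of all genes that did so is not given here.

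**Figure D5:**
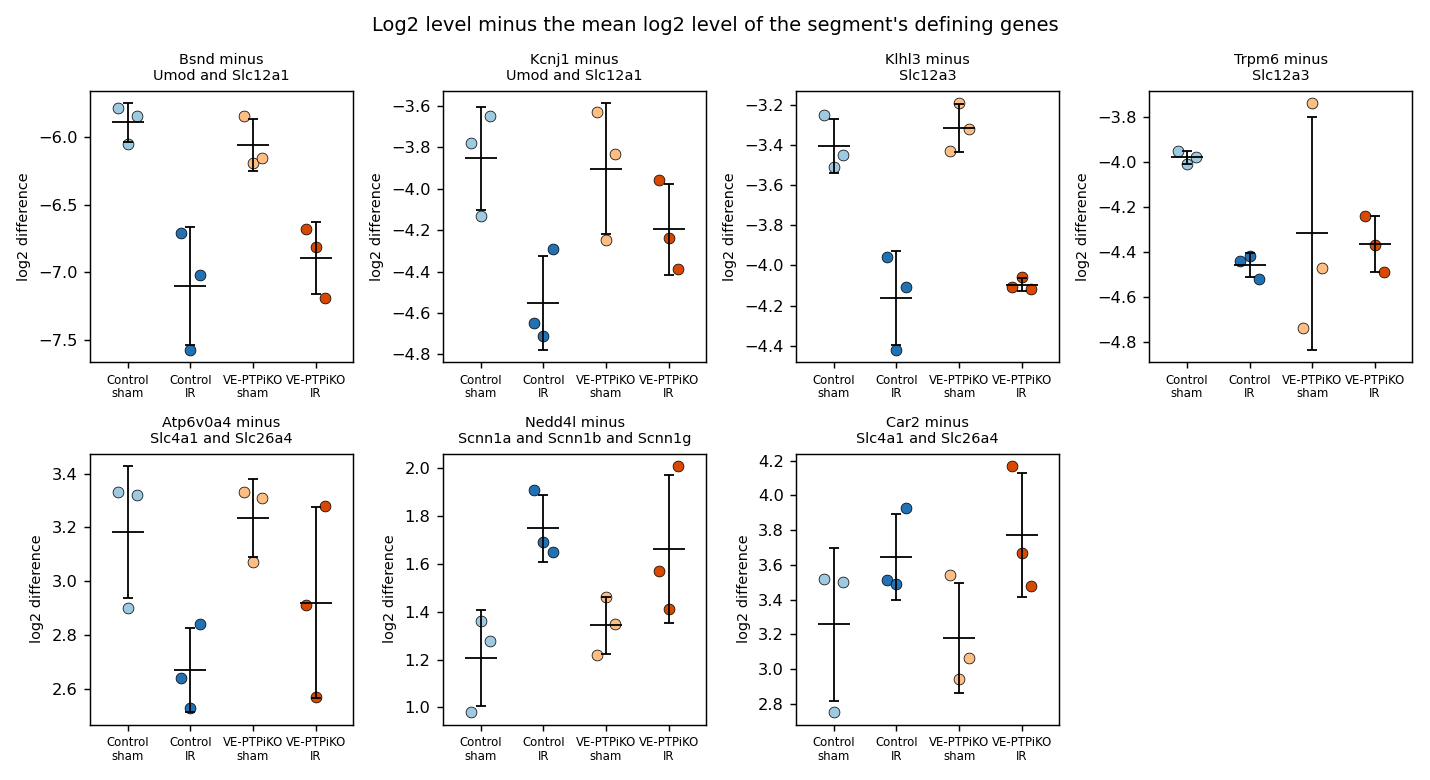
Log2 level of each of the 7 genes minus the mean log2 level of the defining genes of its segment, by library; points are libraries, the wide bar is the mean and the whiskers are ± 1 SD of 3 libraries, and the axes do not start at 0. Bsnd and Klhl3 lie lower in all 6 IR libraries than in all 6 sham libraries.

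The genotypes were then compared directly over all 12 libraries, and 0 of 35 genes passed in any of these comparisons with limma, edgeR or DESeq2. The background was 0% of 16339 genes for the interaction of genotype and injury, for genotype in sham and for genotype after IR, with 432 (2.64%), 267 (1.63%) and 709 genes (4.34%) at an unadjusted p under 0.05 in limma. Of the genes described here, 1, 0 and 1 had such a p. The interaction estimates, the log2 fold change of VE-PTPiKO minus that of Control kidneys, ran from -0.69 (Kcnj10; 95% interval -1.34 to -0.04, unadjusted p of 0.038 and adjusted p of 0.999 in limma) to 0.40 (Kcnj1). They were 0.38 for Bsnd, -0.23 for Klhl3 and -0.34 for Nedd4l. After IR, Pvalb was the gene with the unadjusted p, at a log2 difference of -0.80 between VE-PTPiKO and Control kidneys (-1.35 to -0.25; adjusted p of 1 in limma), and in sham kidneys its difference was -0.55 (-1.11 to 0.00). The Control IR and VE-PTPiKO IR libraries did not overlap for Pvalb, nor did they for Cul3, Oxsr1 and Cnnm2. The share of all genes separate in this way is not given here.

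The genotypes share no libraries in these IR comparisons. Of the 35 genes tested in both, 27 (77.1%) had IR estimates of the same sign, close to the 73.5% of all 16021 genes tested in both. IR and sham libraries did not overlap for 13 of 36 genes in Control kidneys (10 lower, 3 higher; background 29.4%, with 13.4% lower and 16.0% higher) and for 7 in VE-PTPiKO kidneys, all lower (background 20.6%, with 10.0% lower and 10.6% higher). Without VE-PTPiKO IR replicate 3, the number of these genes that passed in VE-PTPiKO kidneys was 7 in place of 2, namely Bsnd, Klhl3, Wnk1, Wnk4 and Kcnj10, which were lower, and Car2 and Rhbg, which were higher; the background then was 11.8%. Without the 2 VE-PTPiKO libraries highest in Malat1 it was 5, Bsnd, Klhl3, Wnk4 and Kcnj16 lower and Car2 higher, with a background of 5.24%. The set without the 2 libraries highest in Malat1 was defined after the libraries had been seen.

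A further list held 47 other genes of the same segments, such as claudins, aquaporins and transcription factors. In Control kidneys 7 of the 47 passed (14.9%; 6 lower, 1 higher) and in VE-PTPiKO kidneys 3 (6.38%, all lower), beside 11.5% and 2.71% of all genes. In the thick limb, Cldn14, a claudin that limits calcium passage between cells, had 158, 19.2 and 75.6 normalised reads in Control sham and 2.14, 7.11 and 2.84 in Control IR kidneys. In VE-PTPiKO kidneys it had 62.1, 32.9 and 131 after sham surgery and 4.16, 5.44 and 4.36 after IR. All IR libraries were below all sham libraries, although the sham libraries differed widely among themselves. The log2 fold changes were -3.77 ± 0.66 and -3.54 ± 0.48, with adjusted p of 0.00401 and 0.00653 in limma, and at these low levels they depended on the pseudocount (-4.08 and -3.77 with a pseudocount of 0.1, -2.96 and -2.86 with 5).

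Of the distal convoluted and connecting tubule list, Trpv5, the apical calcium channel, had 278, 243 and 358 normalised reads in Control sham and 510, 804 and 718 in Control IR kidneys, a log2 fold change of 1.20 ± 0.19 with an adjusted p of 0.00226 in limma. Tmem52b, a transmembrane protein, was lower by a log2 fold change of -0.66 (adjusted p of 0.00795). In the principal cell list Tfcp2l1, a transcription factor of the collecting duct, was lower at -0.67 (adjusted p of 0.0273). The Tmem52b call was lost without Control IR replicate 2 (adjusted p of 0.0556 in limma). That of Tfcp2l1 was lost without Control sham replicate 2 or 3 (adjusted p of 0.0574 and 0.1) and without Control IR replicate 1, 2 or 3 (0.0537, 0.146 and 0.0511), and in one model of all 12 libraries (0.125). In VE-PTPiKO kidneys the log2 fold changes of Trpv5, Tmem52b and Tfcp2l1 were 0.59, -0.56 and -0.87, with adjusted p of 0.115, 0.117 and 0.159.

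In the intercalated cell list, 3 of 15 genes were lower in Control and 2 of 15 in VE-PTPiKO kidneys. These are 20.0% and 13.3%, beside 4.02% and 0.793% of all genes called lower. Foxi1, the transcription factor that specifies intercalated cells, had 616, 522 and 474 normalised reads in Control sham and 298, 286 and 247 in Control IR kidneys, a log2 fold change of -0.95 ± 0.14 with an adjusted p of 0.0016 in limma. VE-PTPiKO libraries had 520, 672 and 533 after sham surgery and 360, 227 and 366 after IR, also without overlap, and its log2 fold change of -0.87 had an adjusted p of 0.0749. Hmx2, a homeobox factor, had 141, 165 and 175 normalised reads in Control sham and 28.8, 28.4 and 31.2 in Control IR kidneys. Its log2 fold changes were -2.39 ± 0.20 and -1.63 ± 0.26 in Control and VE-PTPiKO kidneys, with adjusted p of 5.27e-05 and 0.0129 in limma. Oxgr1, the oxoglutarate receptor of type B cells, was lower at -0.80 and -0.82, with adjusted p of 0.00328 and 0.0464. In VE-PTPiKO kidneys the Hmx2 call was lost without replicate 2 or 3 of the sham group or replicate 2 of the IR group (adjusted p of 0.0671, 0.0911 and 0.0658 in limma). The Oxgr1 call there was lost without sham replicate 1, 2 or 3 (0.0642, 0.207 and 0.207) or IR replicate 1 or 2 (0.190 and 0.0733), without the 2 VE-PTPiKO libraries highest in Malat1 (0.0775), and with TMM scaling (0.0511) or no filter on low values (0.0506).

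Promoter sequence was matched for 26 of the 36 genes in RefSeq (GRCm38.p6) and read over 250 bases upstream of the start. Of the 7 genes that passed, Kcnj1, Klhl3, Trpm6 and Atp6v0a4 had a promoter to search. Of these, Klhl3, with the lowest VE-PTPiKO fold change, and Atp6v0a4, the 1 with a match to a motif searched, are shown. Capitals mark that match, and the RefSeq start of Klhl3 lies upstream of the gene model given above.
Klhl3 (chr13:58113648-58113897, minus strand): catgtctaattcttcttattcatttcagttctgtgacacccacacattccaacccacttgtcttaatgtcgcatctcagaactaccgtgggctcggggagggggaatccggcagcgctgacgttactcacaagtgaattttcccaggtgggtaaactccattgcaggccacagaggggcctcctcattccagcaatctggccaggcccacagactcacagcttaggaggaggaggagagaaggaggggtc
Atp6v0a4 (chr6:38124587-38124836, minus strand): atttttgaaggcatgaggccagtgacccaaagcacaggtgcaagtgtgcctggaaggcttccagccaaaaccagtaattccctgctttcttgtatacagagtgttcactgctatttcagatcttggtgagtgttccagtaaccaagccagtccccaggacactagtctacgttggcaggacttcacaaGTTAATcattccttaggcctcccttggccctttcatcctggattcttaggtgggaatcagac

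The motifs were chosen after the values were seen and searched on both strands. The HNF1 motif GTTAAT was found in 4 of the 26 promoters (Atp6v0a4, Atp6v1g3, Kcnj16 and Umod) and in 6.43% of all 32851 promoters. In Atp6v0a4 it starts at -62. The forkhead motif TGTTTAC was found in 3 of 26 (Atp6v1b1, Avpr2 and Slc12a1) and in 3.17% of all promoters, and the AP-1 motif TGANTCA in 0 of 26 and in 6.75% of all promoters. The 250 bases of Klhl3 held none of these letters. Of the 4 genes with the HNF1 motif, Atp6v0a4 passed the test in Control kidneys, and of the 3 with the forkhead motif 0 passed in limma, edgeR or DESeq2. Among those 3, Avpr2 had 0 to 3 reads a library, too few for a fold change. These matches describe the sequence only.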

How the data were processed

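Whole-kidney RNA was prepared with Trizol and a TruSeq kit, per the labels' protocols. The submitters' processing notes name FastQC, STAR, HTSeq, DESeq2 and mm10; versions, strandedness and filters are not given in the sources used here. The authors deposited a table per genotype with each library's signal (reads divided by a size factor) and their log2 fold changes, Wald scores (not used) and p-values. Whole reads were recovered for 100.0% of the deposited values (tolerance 0.02 reads) and scaled together over 12 libraries by the median of ratios of 14828 genes. Each table has 23493 lines; repeated entries of 182 identifiers held the same values and were counted once, leaving 23286. IR was compared with sham within each genotype's table by limma 3.58.1 (R 4.3.3) on log2(value + 1), leaving out genes whose mean was below 1. The interaction and the genotype comparisons used limma on the 12 libraries scaled together. Calls had a Benjamini-Hochberg adjusted p under 0.05 over all genes tested; fold changes on this scale understate those of low genes. Alternatives were edgeR 4.0.16, DESeq2 1.42.0, TMM scaling, other filters and pseudocounts, a replicate block, one model of 12 libraries and each library left out. The scripts were tested on simulated data. Exon lengths are unions of exons in GENCODE vM21 (GRCm38). All 36 genes were placed by segment; libraries' values were given for the defining genes and for each gene called, and the further genes named are those of a list of 47 called after IR. Wnk4, Cul3, Kcnj10 and Pvalb were chosen for such values after they were seen. Members and lists were chosen with earlier results of these data known. Some genes of the list of 47 are not reported singly here.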

Additional observations from a re-analysis of the deposited data

How the results depend on the processing

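Bsnd, Kcnj1 and Klhl3 in Control kidneys passed under all 16 settings run. The number of the 36 genes called in Control kidneys was 7, 4 in a model of all 12 libraries (Atp6v0a4, Bsnd, Kcnj1 and Klhl3) and 3 to 7 with a library left out; the cause was not tested. Over all genes it was 862 to 2010 with a library left out, beside 1870, and 862 was the number without Control IR replicate 2. In VE-PTPiKO kidneys 2 genes were called, 4 in the model of 12 libraries (Atp6v0a4, Bsnd, Klhl3 and Wnk4), 0 to 7 with a library left out and 5 without the 2 libraries highest in Malat1. Over all genes, 445 were called there by limma, 1013 by DESeq2, 1019 in the model of 12 libraries, 853 without the 2 libraries highest in Malat1, and 126 to 1925 with a library left out: 170 and 126 without sham replicate 2 and 3, and 194, 168 and 1925 without IR replicate 1, 2 and 3. No gene described here was called between genotypes or for the interaction in any setting; over all genes these counts were 0, except 1 by DESeq2 in sham and 1 after IR, 1 in sham without the 3 libraries highest in Malat1, and 0 to 1 with a library left out. With the replicate number as a block, 7 genes and 1805 of all genes were called in Control and 3 and 604 in VE-PTPiKO kidneys, where Wnk4 was added (adjusted p of 0.0147 in limma). The deviations of samples of the same number correlated by -0.06 to 0.05 in Control and -0.20 to 0.30 in VE-PTPiKO kidneys between sham and IR, and between the genotypes by 0.096 to 0.296 in sham and -0.004 to 0.096 in IR kidneys; no comparison had every pair above 0.1, so the numbers were not treated as pairs. Of the alternative values of single genes, 670 kept their side of the threshold or moved by less than the spread, 29 no longer passed, 13 newly passed, and 0 reversed a call in limma, edgeR or DESeq2. Depth limited Avpr2 (0 to 3 reads a library) and Kcnma1 (36 to 113 reads).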
